A study of Mus musculus with 12 samples.

Results

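Tarm1, Lox, Inhba, Susd2 and Col5a3 are 5 genes whose transcripts were close to absent, or low, in resting mouse airway macrophages (AMs) and were much higher with bacterial lipopolysaccharide (LPS). They were picked by name, as genes with large rises that are not chemokines, from 20551 genes in the table, and other such genes stood between and above them in the order of rises. The values that chose them are therefore the LPS and medium levels in both genotypes, and these are described here without a test. The comparison between genotypes within 1 treatment is not named in the rule and was tested. It draws on the same LPS and medium levels, so it is not independent of the choice.

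The study asked whether the mucus-obstructed airway changes the state of AMs and their answer to a bacterial product. WT mice and Scnn1b-Tg mice of the C57BL/6 background, 6 weeks old, gave AMs in pools of 3 to 4 animals. Scnn1b-Tg mice carry an extra Scnn1b, which encodes a subunit of the epithelial sodium channel, under the club cell secretory protein promoter, so the transgene acts in airway epithelium and not by design in the macrophages. Cells of each pool were kept for 12 h in medium alone or with 100 ng/ml LPS of Pseudomonas aeruginosa.

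The 12 libraries form 4 groups of 3, with medium or LPS for each of WT and Scnn1b-Tg. Each of 6 pools (WT 16, 17 and 18, Scnn1b-Tg 17, 18 and 19) gave 1 medium and 1 LPS library. WT 16, WT 17 and Tg 17 belong to library batch 1, and WT 18, Tg 18 and Tg 19 to batch 2. Levels are given as deposited estimated counts or as CPM, counts per M counts after TMM scaling, which corrects for library composition. Library totals were 48.2 to 60.9 M counts, and low counts piled up in steps of 2.5, so that 8 counts stand for about 3 reads. A gene is called at the floor where it held at most 8 counts, which is 0.131 to 0.166 CPM depending on the library. Scnn1b itself ranged from 0 to 40 counts in WT and from 4 to 29 counts in Scnn1b-Tg libraries, overlapping between genotypes.

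LPS is sensed on macrophages by TLR4, which signals through the adaptors MyD88 and TRIF to NF-kB, AP-1 and interferon regulatory factors and within hours reshapes transcription. The best known products are cytokines and chemokines, while the 5 genes here encode proteins of other kinds. Tarm1 encodes an activating immunoglobulin-like receptor of myeloid cells that signals through the Fc receptor gamma chain. Inhba encodes the beta A chain of activin A, a secreted ligand of the TGF-beta family. Lox encodes lysyl oxidase, the secreted copper enzyme that starts the crosslinking of collagen and elastin, and Col5a3 encodes a chain of the fibrillar type V collagen. Susd2 encodes a membrane protein with a sushi domain that binds galectin-1.

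On the mm10 build, Tarm1 (ENSMUSG00000053338) lies on the minus strand at chr7:3486500-3502624 and Inhba (ENSMUSG00000041324) on the plus strand at chr13:16011851-16031621. Susd2 (ENSMUSG00000006342) lies on the minus strand at chr10:75636706-75644008 and Col5a3 (ENSMUSG00000004098) on the minus strand at chr9:20770050-20815067. Exons of these genes shared no bases with exons of another gene.

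Promoters are shown because the members are low at rest and high after LPS, so the bases at their starts are what a reader would look at next. RefSeq windows of GRCm38.p6, from 250 bases before to 50 after the start, were found for 3 of the 5 members, and each is printed 5′ to 3′ along the gene. The windows are chr7:3502575-3502874 (minus strand) for Tarm1, chr13:16011601-16011900 (plus strand) for Inhba and chr9:20815018-20815317 (minus strand) for Col5a3. Capitals mark matches to the motifs described beneath them.
Tarm1: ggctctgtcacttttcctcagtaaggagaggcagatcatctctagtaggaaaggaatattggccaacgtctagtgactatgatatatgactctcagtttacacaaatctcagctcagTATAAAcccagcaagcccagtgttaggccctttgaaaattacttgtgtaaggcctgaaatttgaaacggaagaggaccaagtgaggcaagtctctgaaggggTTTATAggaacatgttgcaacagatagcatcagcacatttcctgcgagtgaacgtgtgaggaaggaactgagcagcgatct
Inhba: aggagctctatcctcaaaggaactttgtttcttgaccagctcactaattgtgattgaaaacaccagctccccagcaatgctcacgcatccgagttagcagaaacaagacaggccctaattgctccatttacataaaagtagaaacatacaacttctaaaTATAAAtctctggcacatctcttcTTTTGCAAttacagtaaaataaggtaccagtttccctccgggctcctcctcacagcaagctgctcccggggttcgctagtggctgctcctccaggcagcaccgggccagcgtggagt
Col5a3: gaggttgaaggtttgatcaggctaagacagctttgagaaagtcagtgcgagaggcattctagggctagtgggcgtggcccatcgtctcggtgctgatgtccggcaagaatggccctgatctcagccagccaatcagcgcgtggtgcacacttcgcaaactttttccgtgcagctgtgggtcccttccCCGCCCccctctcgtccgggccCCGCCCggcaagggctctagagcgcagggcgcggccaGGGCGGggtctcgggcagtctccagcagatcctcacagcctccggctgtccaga

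Both strands were searched for 7 motifs, each as its letters. The TATA box TATAAA, which 13.6% of 32851 RefSeq promoters of this length hold, had 2 matches in the Tarm1 window, beginning 133 and 31 bases before the start, and 1 in the Inhba window, beginning 91 bases before it. The Tarm1 match nearer to the start reads TTTATA, the reverse strand of the motif. In the Inhba window, TTTTGCAA matched the C/EBP motif TTGCNNAA on the reverse strand, beginning 67 bases before the start, and 10.8% of promoters hold this motif. The Col5a3 window held no TATAAA and had 3 matches to the GC box GGGCGG, beginning 63, 41 and 4 bases before the start, a motif of 35.7% of promoters.

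Matches to AP-1 TGANTCA (7.81% of promoters), the NF-kB motif (8.46%), the IRF motif (3.44%) and CRE TGACGTCA (1.79%) were in none of the 3 windows. This says only that these letters are not in these windows. The Tarm1 and Inhba windows had GC contents of 44.7% and 47.7%, under the median of 52.7% over all promoters, and the Col5a3 window had 63.3%. The 3 windows thus differed in base composition and in which motif letters they held, although the genes share the pattern that chose them. Whether any match acts in these promoters was not tested.

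Tarm1 was the member nearest to absent at rest. Its counts in WT medium were 0 in pool 16, 3 in pool 17 and 0 in pool 18, and in Scnn1b-Tg medium they were 0, 0 and 2 in pools 17, 18 and 19. All 6 medium libraries were thus at the floor, in both genotypes. After LPS the counts were 1024, 1128 and 1060 in WT and 2762, 1756 and 2305 in Scnn1b-Tg, so medium and LPS libraries were separated by a wide gap. Mean levels after LPS were 20 ± 0.44 CPM (WT) and 41.9 ± 7.78 CPM (Scnn1b-Tg; SD, n = 3).

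For a gene with so few reads at rest, a fold change has no firm size. In the 4 pools whose medium library held 0 counts, Tarm1 was at least 143-fold (WT 16), 125-fold (WT 18), 355-fold (Tg 17) and 220-fold (Tg 18) higher with LPS, measured against 8 counts in the medium library. Summed over the 3 pools of a genotype and counted as reads, the ratio of LPS to medium was 1237 in WT (95% exact interval 222 to 48905) and 2771 in Scnn1b-Tg (497 to 109469). These intervals and the floor cover counting error only, since PCR copies were not marked by molecular identifiers.

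Inhba was low but measurable at rest. WT medium libraries held 0.877, 1.26 and 2.13 CPM in pools 16, 17 and 18, and Scnn1b-Tg medium libraries 0.822, 2.26 and 6.65 CPM in pools 17, 18 and 19. The medium library of pool Tg 19 stood apart as the highest at rest, while the other 5 lay between 0.822 and 2.26 CPM. After LPS the levels were 161, 326 and 226 CPM in WT and 220, 331 and 403 CPM in Scnn1b-Tg. Each LPS library was above every medium library, by 60.6-fold (Tg 19) to 268-fold (Tg 17) within a pool, so the pool with the highest resting level had the smallest ratio and also the highest level after LPS.

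Lox, at chr18:52516067-52529867 on the minus strand (ENSMUSG00000024529), was near the floor at rest. Its exons share 30 bases with an antisense gene, and counting ignored strand, so reads over those bases cannot be told apart. Counts were 43, 10 and 32 in WT medium and 13, 45 and 76 in Scnn1b-Tg medium, each above 8 counts and none above 1.42 CPM. With LPS the levels were 143, 202 and 142 CPM in WT and 227, 234 and 225 CPM in Scnn1b-Tg. The LPS libraries of Scnn1b-Tg lay close together (229 ± 4.98 CPM), while those of WT spread more (163 ± 34.2 CPM). Within pools the ratio ran from 158 (Tg 19) to 1020 (Tg 17), with medium counts of 10 to 76 in the denominators.

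Col5a3 had the highest levels of the 5, at rest and after LPS. In medium it measured 5.12, 7.48 and 10.2 CPM in WT and 7.98, 6.69 and 10.6 CPM in Scnn1b-Tg. With LPS it reached 531, 923 and 541 CPM in WT and 830, 635 and 576 CPM in Scnn1b-Tg. The groups of the 2 genotypes overlapped in each treatment, and LPS was 53.2-fold (WT 18) to 123-fold (WT 17) above medium in the 6 pools.

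Susd2 lay at 0.0895, 0.835 and 0.563 CPM in WT medium, the first of these being 5 counts and at the floor. In Scnn1b-Tg medium the levels were 0.77, 0.723 and 0.691 CPM. LPS brought it to 59, 72.7 and 54.2 CPM in WT and to 108, 51 and 106 CPM in Scnn1b-Tg. In Scnn1b-Tg the library of pool 18 was under all WT libraries and the other 2 were above them. In the 5 pools with more than 8 counts in medium, the ratio was 70.5 (Tg 18) to 153 (Tg 19).

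**Figure D1:**
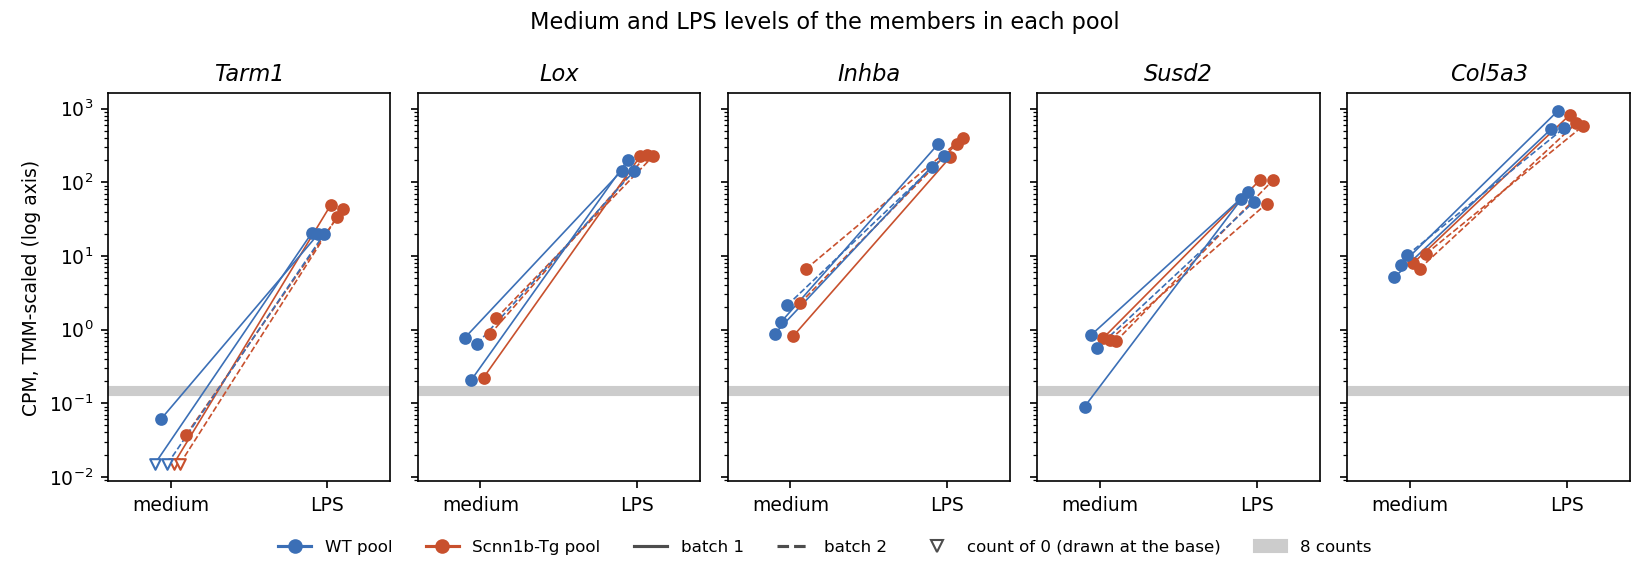
Level of each member in medium and with LPS, in TMM-scaled CPM on a log axis, with 1 line for each of the 6 pools (WT in blue, Scnn1b-Tg in orange, batch 2 dashed). The grey band is the range of 8 counts over the libraries, and open triangles are counts of 0. All medium points of Tarm1 lie under the band and its LPS points between 19.6 and 48.6 CPM, while Col5a3 runs from 5.12 to 10.6 CPM up to 531 to 923 CPM.

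Between genes, levels can be compared only per length, here as CPM per kb of summed exon length. After LPS, Col5a3 was the highest (97.7 ± 32.8 CPM per kb in WT and 99.9 ± 19.5 in Scnn1b-Tg), above the values of every other member in both genotypes. Inhba (37.2 ± 12.9 and 49.8 ± 14.5 CPM per kb) and Lox (34 ± 7.16 and 47.9 ± 1.04) came next and did not differ beyond their spread. Susd2 (18 ± 2.8 and 25.6 ± 9.36) followed, and Tarm1 was lowest with 9.69 ± 0.213 in WT and 20.3 ± 3.76 in Scnn1b-Tg, where it lay within the spread of Susd2.

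The members thus moved from the lower part of the transcriptome into the upper part. In WT, 1.08% of the 13729 tested genes were lower than Tarm1 per kb in medium and 70% after LPS. For Lox the share was 9.37% in medium and 89.1% after LPS, for Inhba 14.3% and 89.8%, for Susd2 11.1% and 80.9%, and for Col5a3 31% and 96.3%. In Scnn1b-Tg the shares after LPS were 82.5% for Tarm1, 91.9% for Lox, 92.3% for Inhba, 85.7% for Susd2 and 96.3% for Col5a3.

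Fitted log2 fold changes with LPS, from edgeR with a term for the batch, put the members side by side. In WT they were 9.85 (SE 0.46) for Tarm1, 8.23 (0.51) for Lox, 7.52 (0.61) for Inhba, 6.99 (0.49) for Susd2 and 6.45 (0.36) for Col5a3. In Scnn1b-Tg they were 11.50 (0.47), 8.14 (0.50), 6.73 (0.58), 6.91 (0.47) and 6.33 (0.36) in the same order. Over all tested genes the median was 0.00 in WT and -0.02 in Scnn1b-Tg, and 5% of genes exceeded 1.53 and 1.58. Without the medium library of Tg 19, the value of Inhba in Scnn1b-Tg was 7.63, above that of Susd2. The values for Tarm1 and their SEs depend on how counts near 0 are treated and are no bounds. Each edgeR SE is the absolute log2 fold change divided by the square root of the test's F statistic. For the LPS change of Tarm1, DESeq2 gave SEs of 0.85 in WT and 1.03 in Scnn1b-Tg. With limma and the pool as a random effect they were 1.29 and 1.27. The medium and LPS libraries of the 5 members, picked for large rises, did not overlap in either genotype. Of all tested genes, 18.7% were higher without overlap in WT and 22.3% in Scnn1b-Tg. Nothing is read from that count.

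Restricted to genes averaging 5 CPM or more whose medium and LPS libraries did not overlap, the order of rises in WT placed Tarm1 3rd, Lox 4th, Inhba 6th, Susd2 11th and Col5a3 14th of 1969 genes. In Scnn1b-Tg their places were 1, 5, 14, 11 and 17 of 2444. Places above Col5a3 that no member held went in WT to 3 chemokine genes and to Gm21982 (11.66), Mmp13 (7.48), Dusp4 (7.39), Traf1, 6530402F18Rik (6.85) and Lcn2. In WT, the chemokine gene Cxcl3 (9.86) stood just above Tarm1, Cxcl1 (8.02) between Lox and Inhba, and Cxcl2 (7.48) just under Inhba. Traf1 (6.99), an adaptor of TNF receptors, was just above Susd2, and Lcn2 (6.60), the iron-withholding lipocalin, and Ptgs2 (6.45), the inducible cyclooxygenase, flanked Col5a3. In Scnn1b-Tg, Cxcl3 (10.54) followed Tarm1, Lox lay between Cxcl2 (8.33) and the collagenase gene Mmp13 (7.84), and Col5a3 followed Il1b (6.46).

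With low genes included, the places were lower, from 7 (Tarm1) to 70 (Col5a3) of 13729 in WT and from 3 (Tarm1) to 90 (Col5a3) in Scnn1b-Tg. The genes next to them in that order were Cxcl3 (9.86) and Rnf225 (9.67) for Tarm1, Ptgs2os2 (8.31) and Gm16685 (8.18) for Lox and Kcnf1 (7.55) and Tet1 (7.48) for Inhba in WT. Susd2 stood between Traf1 (6.99) and Ms4a4d (6.98), and Col5a3 between Nr4a3 (6.48) and Ptgs2 (6.45). In Scnn1b-Tg the neighbours were Gm16685 (11.56) and Orm1 (10.87) for Tarm1, Pglyrp3 (8.28) and Glis3 (8.11) for Lox, Gm14275 (6.74) and Gm14963 (6.72) for Inhba, Trim30c (6.94) and Pdgfrb (6.84) for Susd2, and Cst7 (6.37) and Gbp2b (6.32) for Col5a3.

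**Figure D2:**
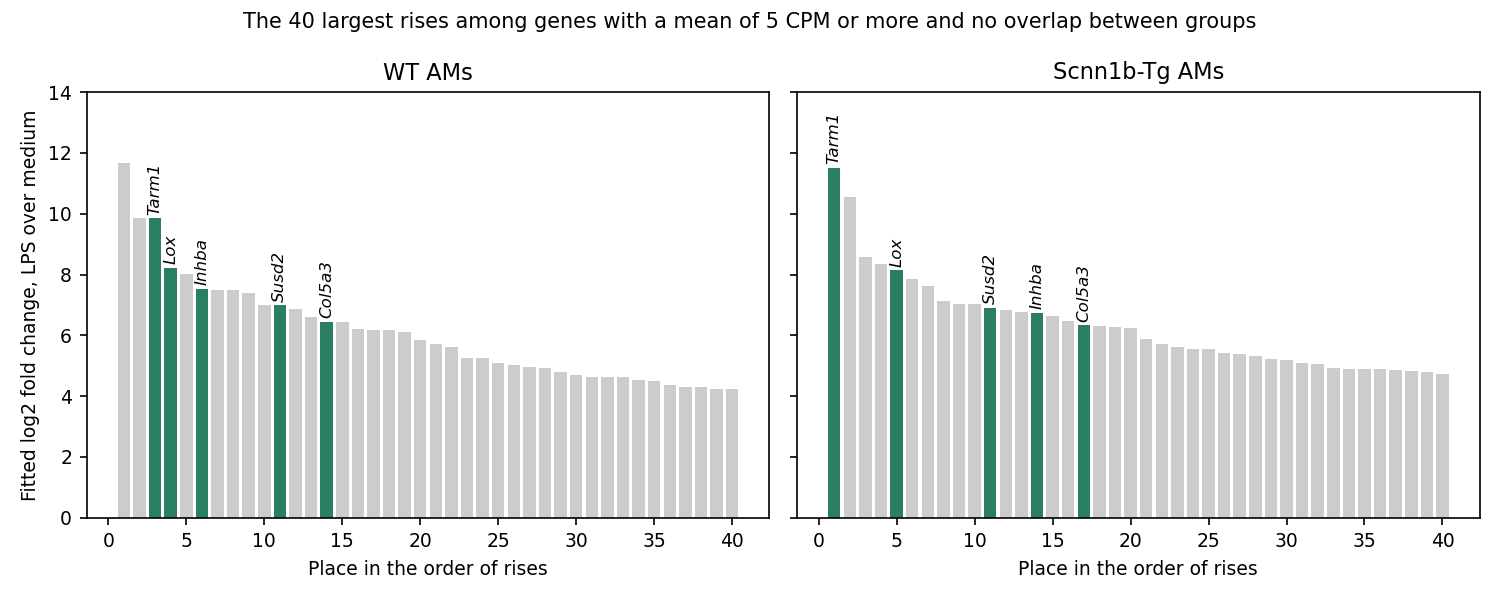
Fitted log2 fold change of LPS over medium for the 40 largest rises in each genotype, taken from genes averaging 5 CPM or more without overlap of the groups, with the members in green and other genes in grey. Members hold places 3, 4, 6, 11 and 14 in WT (left) and 1, 5, 11, 14 and 17 in Scnn1b-Tg (right), and the height of the Tarm1 bars depends on the treatment of counts near 0.

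The clearest difference between genotypes was that of Tarm1 after LPS, and it did not pass the main test. The level was 2.09 times higher in Scnn1b-Tg, where the 3 libraries (33.4 to 48.6 CPM) all lay above the 3 of WT (19.6 to 20.4 CPM). The fitted log2 difference was 1.12 (SE 0.24) with an adjusted p of 0.216 in edgeR's quasi-likelihood test (Benjamini-Hochberg over 13729 genes). It was 1.26 within batch 1 and 0.92 within batch 2, on log2 of CPM plus 0.5. With the pool as a random effect, which takes up that medium and LPS libraries of 1 pool share their animals, limma gave 1.12 (SE 0.14) with an adjusted p of 0.0158, and DESeq2 gave 1.11 (SE 0.18) with an adjusted p of 1.12e-06. The size ran from 0.96 to 1.28 over 20 alternatives, and those 2 were the only ones that called it.

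Lox also had no overlap after LPS, with 225 to 234 CPM in Scnn1b-Tg and 142 to 202 CPM in WT. The ratio was 1.41 and the fitted log2 difference 0.40 (SE 0.37), with an adjusted p of 1 in edgeR. Within batch 1 the difference was 0.41 and within batch 2 it was 0.69. It fell to 0.08 without the LPS library of WT 18 and to 0.22 without that of Tg 17, and was 0.62 without that of WT 17. For Susd2 the fitted difference was 0.58 (SE 0.36) with an adjusted p of 0.894 and overlapping groups, and batch values of 0.71 and 0.43. It was 0.18 with the replicate number as a block in place of the batch and 0.37 without the LPS library of Tg 19. Inhba (0.03, SE 0.48, batch values -0.06 and 0.69) and Col5a3 (0.04, SE 0.29, batch values 0.24 and 0.16) had fitted differences smaller than their errors and adjusted p-values of 1.

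In all, 0 of 5 members passed an adjusted p of 0.05 between genotypes after LPS in edgeR, where 0.051% of tested genes did. At an unadjusted p under 0.05 the count in edgeR was 1 (Tarm1), beside 6.78% of tested genes. This unadjusted count was 1 in DESeq2 and 3 in the limma fit with pools, where the share over all genes was not counted. At the adjusted threshold it was 1 (Tarm1) in DESeq2, which called 146 genes over the whole table. It was also 1 (Tarm1) in the limma fit with pools, which called 11 genes. Higher without overlap in Scnn1b-Tg were 2 of 5 members, beside 5.72% of tested genes. For Lox, Inhba, Susd2 and Col5a3, differences of the size of their errors in edgeR were not detectable with 3 pools per genotype. In the limma fit with pools the differences were 0.57 (SE 0.19) for Lox and 0.59 (0.26) for Susd2. They were 0.32 (0.31) for Inhba and 0.17 (0.24) for Col5a3, and none of these genes passed the adjusted threshold. This does not show that the genotypes are alike.

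**Figure D3:**
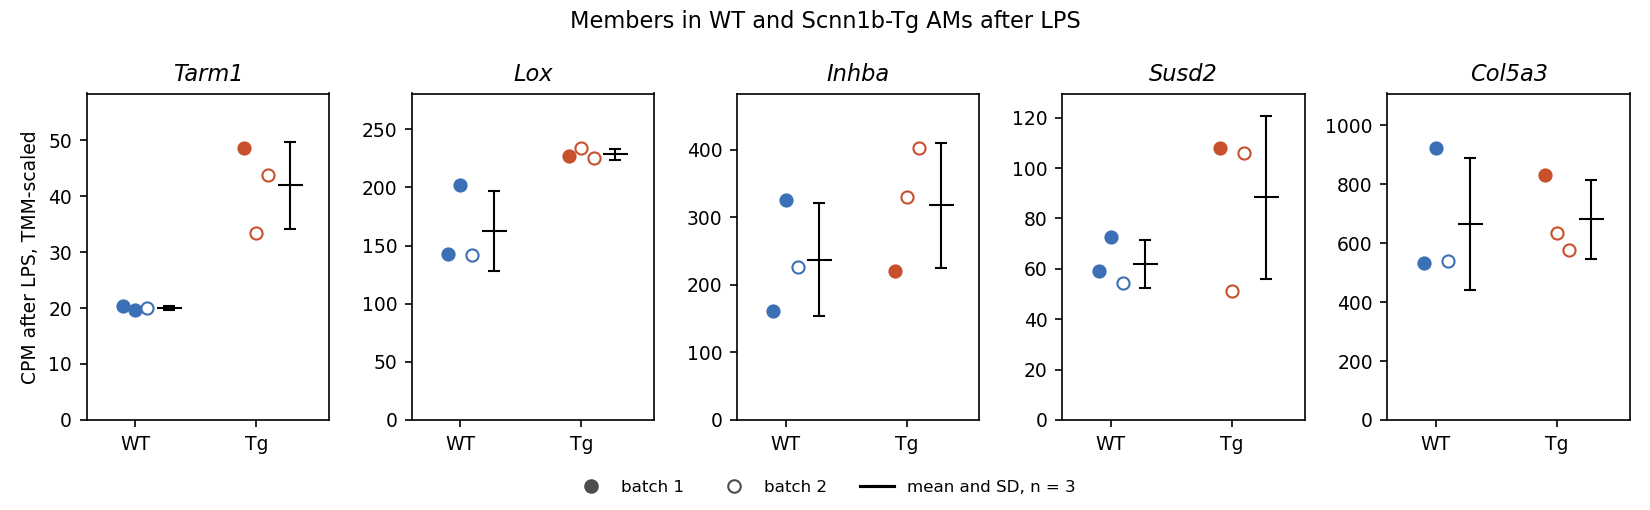
Level of each member after LPS in WT and Scnn1b-Tg libraries, in TMM-scaled CPM on linear axes from 0 (filled points batch 1, open points batch 2, black marks mean and SD, n = 3). Groups are apart for Tarm1 (19.6 to 20.4 against 33.4 to 48.6 CPM) and Lox (142 to 202 against 225 to 234 CPM) and overlap for Inhba, Susd2 and Col5a3.

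In medium the groups overlapped for all 5 members, where 18.4% of tested genes had no overlap in either direction. Fitted log2 differences, Scnn1b-Tg over WT, were 0.83 (SE 0.57) for Inhba, 0.66 (0.56) for Susd2, 0.49 (0.57) for Lox and 0.16 (0.30) for Col5a3, with adjusted p-values of 0.597 to 0.889 in edgeR. Tarm1 was at the floor in both groups and is given no fold. By the adjusted p, 0 of 5 members were called in medium in edgeR, beside 0.262% of tested genes. The count was 0 in DESeq2, which called 500 genes over the whole table, and 0 in the limma fit with pools, which called 32. At an unadjusted p under 0.05 the count was also 0 in each of these fits, beside 13% of tested genes in edgeR. The values of Inhba and Lox rested on pool Tg 19, without whose medium library they were -0.02 and -0.08, and that of Susd2 on pool WT 16, without whose medium library it was 0.13. Whether the LPS response itself differs between genotypes was not tested, since both responses chose the members, so the log2 fold changes stand side by side only.

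The list around activin held 18 genes of ligands, receptors, inhibitors and SMADs, of which 15 were in the table and 10 were tested. In WT 1 rose with LPS and 0 fell, and in Scnn1b-Tg 3 rose and 0 fell, where 15.2% of all tested genes rose and 15.7% fell in WT and 18.8% and 17.8% in Scnn1b-Tg. The list's median log2 fold change was 0.04 in WT and 0.03 in Scnn1b-Tg, close to the medians of all genes. Changes of list genes are fitted log2 fold changes, tested with edgeR. Acvr1b, the type I receptor that activin A uses, rose by 0.89 in WT (adjusted p = 0.000237) and 0.99 in Scnn1b-Tg (adjusted p = 8.03e-05). Its level went from 5.48 to 10.2 CPM (WT) and 5.85 to 11.6 CPM (Scnn1b-Tg).

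The ligand-binding type II receptors did not pass the test, with Acvr2a at 4.65 to 5.71 CPM and Acvr2b at 2.32 to 3.54 CPM over the 4 group means. Acvr1, another type I receptor (0.62, adjusted p = 0.00759), and Smad2, a signal carrier of activin (0.30, adjusted p = 0.0159), rose in Scnn1b-Tg, and in WT their values were 0.36 and 0.01 without passing. Furin, the protease that matures the activin precursor, stood at 112 to 179 CPM and Smad4, the partner of Smad2, at 57.3 to 72.7 CPM, neither called. Inhbb, the beta B chain, was at 10 counts or fewer in each library. The activin-binding proteins Fst and Fstl3 had at most 9 and 18 counts, each with 1 library above the floor. Beside Inhba at 161 to 403 CPM after LPS, transcripts of these antagonists were therefore at or near the floor.

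For Lox and Col5a3 the list held 26 genes of lysyl oxidases, fibrillar collagens, collagen-modifying enzymes and fibronectin, with 22 in the table and 12 tested. In WT 1 rose and 1 fell with LPS and in Scnn1b-Tg 2 rose and 1 fell, with medians of -0.02 and -0.06. P4ha1, a subunit of the enzyme that hydroxylates collagen prolines, rose by 0.58 in WT (adjusted p = 0.00107) and 0.73 in Scnn1b-Tg (adjusted p = 0.000173). Col11a2, a chain of the related type XI collagen, fell, with log2 fold changes of -1.06 (adjusted p = 0.0081) and -0.84 (adjusted p = 0.0231). P4ha2, which encodes a subunit of the same kind, rose by 2.80 in Scnn1b-Tg (adjusted p = 0.0182) and had 1.91 in WT without passing (adjusted p = 0.0892), all at means of 0.151 to 1.07 CPM.

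Type V collagen is built from chains of 3 genes, and the partners of Col5a3 were not seen with it. Col5a1 reached 10 counts at most and Col5a2 at most 5 counts in any library, against 26602 to 53198 counts of Col5a3 after LPS. Col1a1 and Col3a1, the major fibrillar chains, had at most 8 counts. The relatives of Lox were likewise low: Loxl1 and Loxl2 held at most 3 and 5 counts, and Loxl3 and Loxl4 at most 30 and 20. Plod3 (123 to 143 CPM) and Plod1 (98.3 to 132 CPM), which hydroxylate collagen lysines, were abundant and not called in either genotype.

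The list for Tarm1 took 17 genes of the leukocyte receptor families and the Fc receptor gamma pathway, with 12 in the table and 10 tested. In WT 3 rose and 6 fell with LPS, and in Scnn1b-Tg 3 rose and 5 fell, with medians of -0.39 and -0.36. Of the signalling genes, Fcer1g, the gamma chain, rose by 1.22 in WT (adjusted p = 0.000106) and 1.24 in Scnn1b-Tg (adjusted p = 7.12e-05), and the kinase Syk by 1.19 (adjusted p = 8.11e-05) and 1.16 (adjusted p = 7.36e-05). Fcer1g went from 619 to 1444 CPM (WT) and 705 to 1663 CPM (Scnn1b-Tg). Ptpn11, a phosphatase gene, rose by 0.34 (adjusted p = 0.0211) and 0.30 (adjusted p = 0.0313). Card9, an adaptor gene of the Syk pathway, fell, with -0.74 (adjusted p = 0.000589) and -0.53 (adjusted p = 0.00386). Ptpn6, the phosphatase gene that serves inhibitory receptors, fell in WT (-0.36, adjusted p = 0.00946) and had -0.19 in Scnn1b-Tg (adjusted p = 0.118).

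Of the 5 receptor genes tested, Lilra5, Lilra6, Lair1 and Pira2 fell in both genotypes and Pirb was not called. Lilra5, an activating receptor that also pairs with the gamma chain, had log2 fold changes of -1.63 in WT (adjusted p = 6.45e-07) and -1.52 in Scnn1b-Tg (adjusted p = 5.94e-07), and Lilra6 fell from 10.9 to 6.33 CPM (WT, adjusted p = 0.00865) and 11.3 to 5.62 CPM (Scnn1b-Tg, adjusted p = 0.00168). Pirb, an inhibitory receptor, stood at 298 to 400 CPM. Oscar, a collagen receptor gene 107 kb from Tarm1, had 0 counts in all 12 libraries, and the platelet collagen receptor gene Gp6 at most 6 counts. Paired receptors of this family are close copies of each other, so their counts are uncertain.

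For Susd2 the list held 6 genes, of which 4 were in the table and tested, with 1 higher and 2 lower in both genotypes and medians of -0.73 and -0.96. Susd6 rose by 0.50 in WT (adjusted p = 0.00382) and 0.57 in Scnn1b-Tg (adjusted p = 0.00121). Susd1 fell, with -0.72 (adjusted p = 0.00464) and -0.92 (adjusted p = 0.000814). Lgals1, the gene of galectin-1, fell as well, from 685 to 409 CPM (WT, adjusted p = 0.0316) and 713 to 357 CPM (Scnn1b-Tg, adjusted p = 0.00615). None of the genes of the 4 lists was called between genotypes in medium or after LPS by edgeR.

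**Figure D4:**
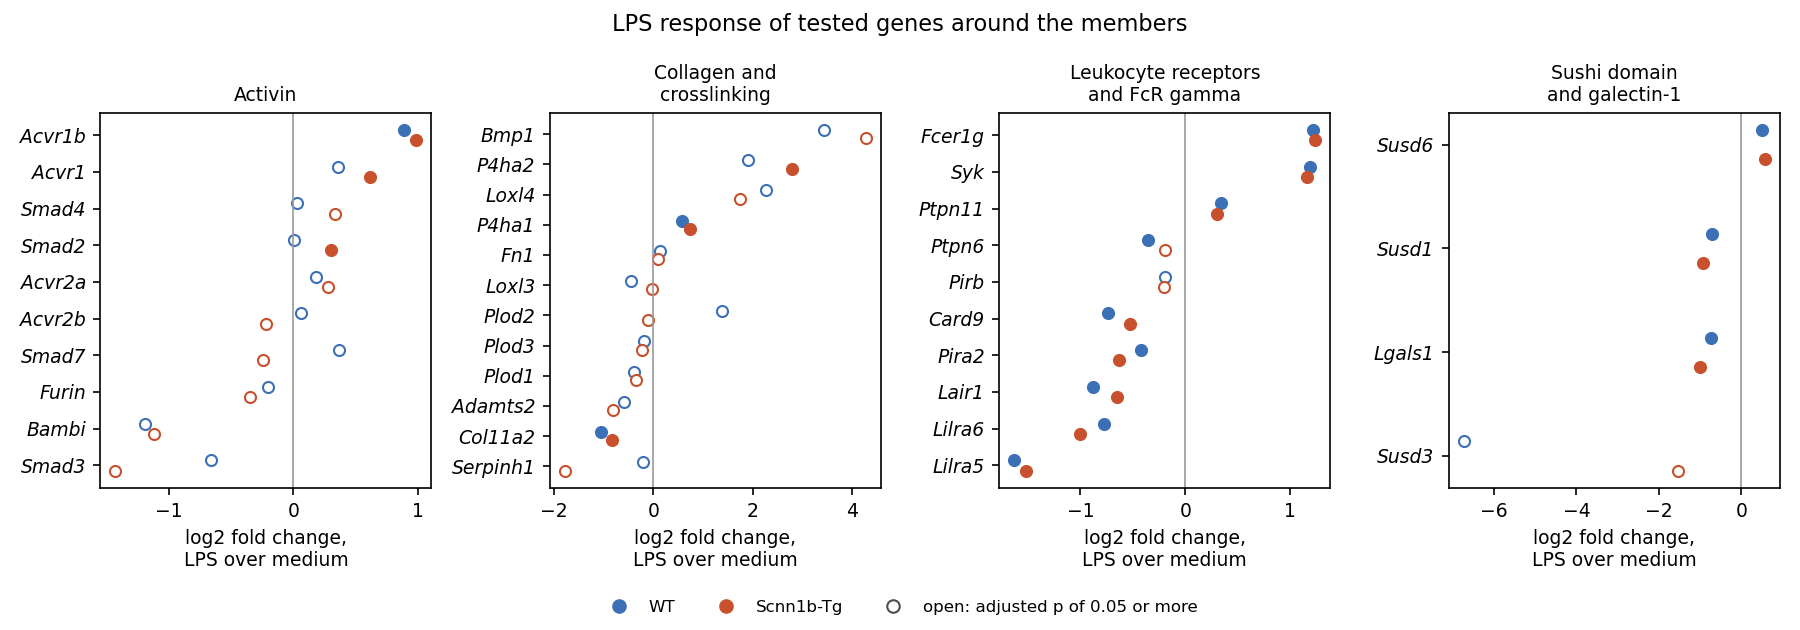
Fitted log2 fold change of LPS over medium for the tested genes of the 4 lists, with WT in blue and Scnn1b-Tg in orange, filled where the adjusted p was under 0.05. Acvr1b, P4ha1, Fcer1g, Syk, Ptpn11 and Susd6 are filled to the right of 0 in both genotypes, none beyond 1.24, while the members lie between 6.33 and 11.50 and are not drawn.

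Across the 12 libraries the members rose and fell together, which the split into medium and LPS libraries sets. Pearson's r between members was 0.978 (Tarm1 and Inhba) to 0.993 (Susd2 and Col5a3) on log2 of CPM plus 0.5. Between 358 (Inhba) and 504 (Tarm1) genes had an r above 0.95 with a member, so a high r is common. The libraries fall into these 2 clusters, so r says little beyond that split and is a description only. The genes most like Tarm1 were Tbk1 (r = 0.996), Orm1 (0.995) and Slamf6 (0.995), and those most like Lox were Zc3h12a (0.998), Cxcl3 (0.996) and Plpp3 (0.995). Inhba was nearest to Plpp3 (0.993), Lox (0.992) and Abtb2 (0.990), Susd2 to Nod2 (0.997), 6530402F18Rik (0.995) and Dusp4 (0.995), and Col5a3 to Boc (0.997), Tpbg (0.996) and Zc3h13 (0.996).

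The nearest measured protein-coding genes on each side of the members, without overlap, moved less than the members or were at or near the floor. They lay up to 826 kb away (Sugct from Inhba), and noncoding, overlapping or unmeasured genes were not considered. Srfbp1, 24.1 kb from Lox, rose by 0.58 in WT (adjusted p = 0.00106) and 0.66 in Scnn1b-Tg (adjusted p = 0.000356), beside 8.23 and 8.14 for Lox. Cabin1, 2.1 kb from Susd2, rose by 0.43 (adjusted p = 0.0403) and 0.47 (adjusted p = 0.0242). Ggt5, 19.5 kb on the other side of Susd2, fell in WT (-1.47, adjusted p = 0.00897) and had -0.87 in Scnn1b-Tg (adjusted p = 0.0684). The genes on both sides of Inhba (Gli3 and Sugct), of Tarm1 (Cacng8 and Oscar) and of Col5a3 (Olfm2 and Rdh8), and Zfp474 beside Lox, had group means of at most 0.17 CPM. These neighbours were chosen by position.

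Since Lox, Col5a3 and Susd2 are also genes of stromal cells, markers of other cells were read in the same libraries. The study's methods describe sorting of CD45+ Siglec-F+ CD11c+ cells, a gate that would remove stromal cells and neutrophils, while the labels describe adherent lavage cells. In bulk RNA, more cells of a type and more RNA per cell cannot be told apart. Of 10 fibroblast markers 9 were in the table, and Col1a1, Col3a1, Thy1 and Postn were at the floor in all 12 libraries. The summed level of the list was 6.91 to 8.6 CPM in the medium libraries and 11.8 to 15.8 CPM in the LPS libraries, against 531 to 923 CPM of Col5a3 alone after LPS. The increase came with Dcn, which went from 0.0473 to 5.09 CPM (WT) and 0.0571 to 5.89 CPM (Scnn1b-Tg), and Pdgfrb, from 0.0849 to 1.11 CPM and from 0.0171 to 2.42 CPM. Pdgfra, the other receptor of that family on the list, fell from 2.89 to 1.82 CPM and from 4.6 to 2.07 CPM. The part of Dcn- or Pdgfrb-bearing cells in the rises was not tested.

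Neutrophils also carry Tarm1. Of 10 neutrophil markers 6 were in the table, S100a9 had at most 5 counts, and Cxcr2 and Csf3r fell with LPS in both genotypes. Camp of the same list went the other way, at low levels of at most 25 counts. It rose from 0 to 0.373 CPM in Scnn1b-Tg (edgeR adjusted p = 0.0224). In WT it went from 0 to 0.194 CPM without passing (adjusted p = 0.0554). The summed level of that list was 13.2 to 22.3 CPM in medium and 12.2 to 16.8 CPM after LPS. After LPS it was 12.2 to 12.4 CPM in WT and 12.9 to 16.8 CPM in Scnn1b-Tg, so it was higher in the same libraries in which Tarm1 was higher, and its part in that difference was not tested. S100a8, a neutrophil gene also expressed by activated macrophages, rose from 2.86 to 7.32 CPM (WT) and 4.53 to 11.1 CPM (Scnn1b-Tg). It was the largest part of the summed level after LPS and of its difference between genotypes. The other markers went both ways after LPS. In WT and Scnn1b-Tg, Csf3r was at 2.86 and 2.77 CPM, Ltf at 1.76 and 0.145, Camp at 0.194 and 0.373 and Cxcr2 at 0.186 and 0.232.

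Epithelial markers (8 of 8 in the table) summed to 80.4 to 118 CPM in WT and 35.9 to 73.4 CPM in Scnn1b-Tg, with 0 called with LPS in WT and 1 lower in Scnn1b-Tg. Endothelial markers summed to 41.1 to 96.4 CPM, nearly all of it Vwf (52 to 89.6 CPM over the group means). Tek and Cldn5 were at the floor, and Cdh5, Kdr and Egfl7 had group means of at most 0.225 CPM. Dendritic cell markers summed to 0.917 to 1.86 CPM in medium and 2.26 to 4.13 CPM after LPS. The increase came mostly with Zbtb46, from 0.451 to 2.35 CPM (WT) and 0.558 to 2.73 CPM (Scnn1b-Tg). Clec9a of the same list went the other way, from 0.348 to 0.02 CPM and from 0.367 to 0.0507 CPM. The part of such cells in the rises of the members was not tested. T or NK cell markers stayed at or under 1.27 CPM and B cell markers at or under 1.12 CPM. Of the 11 markers of alveolar macrophages, the labelled cell type, 10 were in the table and all 10 were detected in every library. Chil3 stood at 7954 to 12604 CPM and Marco at 512 to 1574 CPM over the group means. With LPS, 6 of these 10 fell and 2 rose in WT and 7 fell and 2 rose in Scnn1b-Tg, among them Siglecf (WT 115 to 11.1 CPM, Scnn1b-Tg 118 to 6.47 CPM).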

How the data were processed

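AM pools were split into medium and LPS cultures and their RNA was sequenced. Accounts of the isolation differ, since the labels describe adherent lavage cells and the study's methods describe sorting of CD45+ Siglec-F+ CD11c+ cells from digested lung. Per the labels and methods, the authors aligned reads to mm10 with HISAT2 without strand, quantified GENCODE M20 genes with StringTie, and deposited estimated counts as whole numbers. Low counts clustered at steps of 2.5 per read (55.3% of 47985 values from 1 to 30 were 0 or 3 modulo 5, where 40.0% is even), which gives 9.64 to 12.18 M read pairs per library. Symbols and positions were taken from GENCODE M21 (20132 IDs found, 419 not).

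The members and gene lists were chosen with earlier results of these data known. All 12 libraries were fitted with edgeR 4.0.16 (R 4.3.3; filterByExpr with a minimum count of 10 and total of 15, which left 13729 genes; TMM; terms for group and batch; two-sided quasi-likelihood tests; Benjamini-Hochberg over all genes, threshold 0.05). The script was tested on simulated data. Named genes were the members, the 3 highest Pearson r per member, the genes next to each member in the order of LPS log2 fold changes, and in each list up to 4 genes called in both genotypes and up to 2 at 5 CPM or more called in neither. Others (list genes called in 1 genotype or at the floor, chromosomal neighbours, markers) were named after their values were seen.

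Medium and LPS libraries of a pool come from the same animals, and their deviations from the group means correlated in each pool (r = 0.21 to 0.50). WT and Scnn1b-Tg pools of the same number come from different animals. Their deviations also correlated (r = 0.14 to 0.44 for numbers 17 and 18), and they share a batch. Alternatives were DESeq2 1.42.0, limma 3.58.1 voom with the pool as a random effect (consensus correlation 0.327), another scaling, no filter, counts divided by 5, other terms and each library left out.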

Additional observations from a re-analysis of the deposited data

How the results depend on the processing

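After LPS, 1 member (Tarm1) was called between genotypes with DESeq2 and 1 (also Tarm1) with the pool as a random effect (a replicate block, r = 0.327 within a pool). No member was called in the other 18 alternatives after LPS, nor in any of 20 in medium. The pairing by pool applies to medium against LPS, and it changed no other call of a member. Counts over all genes moved more. Between genotypes after LPS, 7 genes became 146 (DESeq2), 11 (counts divided by 5), 1 (no batch term), 12 (replicate number as a block), 11 (pool as a random effect) and 2 (only the 6 libraries compared), and 2 to 11 when each library was left out. In medium, 36 became 500 (DESeq2), 20 (no filter), 61 (counts divided by 5), 19 (no batch term) and 12 (only the 6 libraries compared), and 4 to 27 when each library was left out, lowest without the medium library of Tg 17. The cause was not tested. The counts of list genes called with LPS, 13 to 16 in WT and 12 to 18 in Scnn1b-Tg when each library was left out, stayed within 1.5 times the main count under all 21 alternatives.

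Fitted genotype differences near 0 changed sign. After LPS, Inhba became -0.02 with DESeq2 and -0.28 with the replicate number as a block, and ran from -0.46 to 0.5 when each library was left out, lowest without the LPS library of WT 18. Col5a3 became -0.17 with the replicate number as a block and ran from -0.23 to 0.34. In medium, Col5a3 became -0.07 with that block and ran from -0.05 to 0.59, Lox became -0.07 with only the 6 libraries compared and ran from -0.08 to 1.09, Inhba ran from -0.02 to 1.37, and Tarm1, at the floor in both groups, from -3.19 to 2.67. For Susd2 the range was 0.37 to 0.8 after LPS and 0.13 to 1.21 in medium, and for Lox after LPS it was 0.08 to 0.62. Single values without 1 library were 2.67 and 0.10 for Tarm1 (WT 17 and Tg 17), -0.08 for Lox, -0.02 for Inhba and -0.04 for Col5a3 (Tg 19). Fitted LPS changes of Tarm1 ran from 9.23 to 13.06 in WT and from 10.88 to 14.16 in Scnn1b-Tg, where 3 and 2 counts stood behind the medium groups, and that of Inhba in Scnn1b-Tg from 6.28 to 7.63. The depth of the medium libraries limits the folds of Tarm1, and of Susd2 in pool WT 16.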
